A study of Mus musculus with 9 samples.

Results

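The 10 genes described here belong to the Notch pathway: the ligands Dll1, Dll3 and Jag1, the receptors Notch1, Notch2 and Notch3, and the transcription factor genes Hes1, Hes5, Hes6 and Hey1. They were listed by symbol and matched to the Ensembl identifiers of a table of read counts, which gave 10 of its 57010 genes. All 10 were among the 13680 genes that had more than 10 reads in every embryo and were tested. RNA was sequenced from the cerebral cortex of single mouse embryos at E12.5 (days of embryonic development), with 1 library for each of 9 embryos. The 3 control embryos (Ctrl) are labelled WT. In the 3 cKO embryos, both copies of Cnot3 were floxed (Cnot3 lox/lox) and Emx1-Cre excised the gene in the radial glial cells (RGCs) of the dorsal telencephalon and in the cells they give rise to. The 3 dcKO embryos carried Trp53 lox/lox as well, so that Emx1-Cre removed Cnot3 and Trp53 together. Blood vessels, meninges and microglia in the dissected tissue lie outside the Emx1 lineage and keep both genes.

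Cnot3 encodes a subunit of CCR4-NOT, the complex that shortens the poly(A) tails of mRNAs and so starts their decay. Trp53 encodes p53, a transcription factor that can drive stressed cells into apoptosis. In Notch signaling, a ligand on the surface of a cell binds a receptor on its neighbor, the receptor is cleaved, and its intracellular domain enters the nucleus and acts with RBPJ to switch on Hes and Hey genes. Hes and Hey proteins repress proneural genes, and in the embryonic cortex this keeps RGCs in a progenitor state while neighboring cells with more ligand become neurons. The comparison of cKO with Ctrl asks which transcripts differ after loss of Cnot3, and that of dcKO with Ctrl asks the same where p53 has been removed too.

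The counted reads numbered 26455779, 21193798 and 28869816 in Ctrl replicates 1, 2 and 3, 25946075, 24835674 and 25218324 in cKO, and 34196798, 45073349 and 23275370 in dcKO. Levels are given as CPM, read counts scaled to a common library size. They are relative to the other genes, and a change in the total amount of mRNA would not be seen in them. Cnot3 (ENSMUSG00000035632.17) was at 117.3, 107 and 98.2 CPM in Ctrl, 14.96, 17.3 and 14.6 CPM in cKO, and 7.33, 48.2 and 19.0 CPM in dcKO. Trp53 (ENSMUSG00000059552.14) was at 237, 254 and 215 CPM in Ctrl, 167, 164 and 167 CPM in cKO, and 15.1, 110.4 and 20.6 CPM in dcKO. Every mutant embryo lay below every Ctrl embryo for the genes deleted in it. The dcKO embryos were unequal, and replicate 2 kept 44.9% of the mean Ctrl level of Cnot3 and 46.9% of that of Trp53, where replicate 1 kept 6.8% and 6.4% and replicate 3 kept 17.7% and 8.8%. Cnot3 fell in cKO (log2 fold change -2.79, edgeR adjusted p = 2.73e-06), and Trp53 also fell there (log2 fold change -0.50, adjusted p = 0.000831). In dcKO the log2 fold changes were -2.18 for Cnot3 and -2.35 for Trp53, with an adjusted p of 0.2003 for both. Counts were summed over all exons of a gene, so exons outside the deleted segment still add to them.

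The dcKO libraries stood apart from the others and from each other. The mean chi-square per gene between embryos of the same genotype, a measure of how far their counts differ beyond the sampling of reads, was 15.6 to 53.8 in Ctrl, 16.8 to 28.4 in cKO and 185 to 507 in dcKO. The median biological coefficient of variation of a gene was 0.14 over the Ctrl and cKO embryos and 0.332 over the Ctrl and dcKO embryos. Libraries also differed with the GC content of transcripts. The fifth of genes with the highest GC content (55.2% or more) was set against the fifth with the lowest (43.8% or less), using the median log2 ratio of each to the Ctrl mean. The difference, highest minus lowest, was 0.18, 0.10 and -0.32 in Ctrl replicates 1, 2 and 3, -0.76, -0.50 and -0.84 in cKO, and -1.79, -2.15 and 0.26 in dcKO. GC-rich genes were thus low in all cKO embryos and lowest in dcKO replicates 1 and 2, while dcKO replicate 3 lay on the other side of 0.

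**Figure D1:**
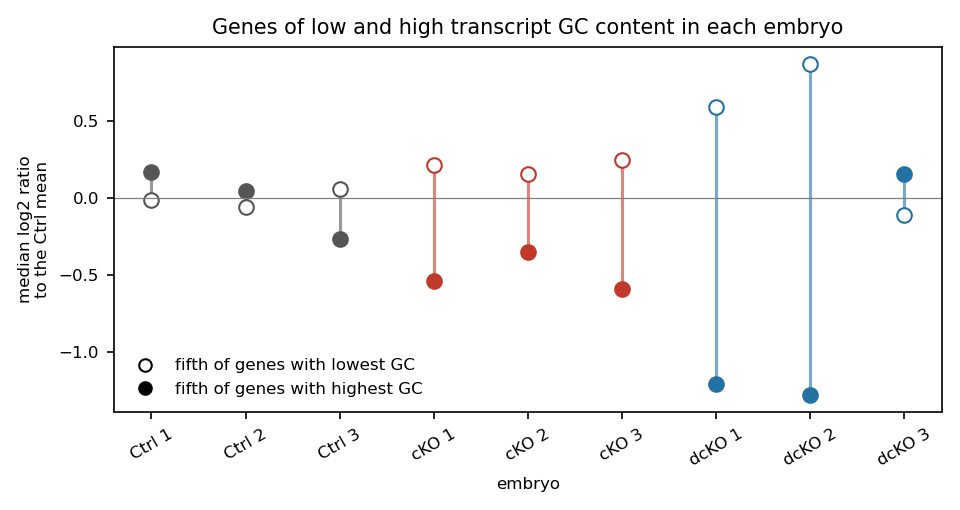
Median log2 ratio to the Ctrl mean of the fifth of genes with the lowest transcript GC content (open circles) and of the fifth with the highest (filled circles), in each of the 9 embryos. The vertical line spans the difference between them, which reached -1.79 and -2.15 in dcKO replicates 1 and 2 and was 0.26 in dcKO replicate 3.

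The members themselves are GC-rich, and 9 of the 10 lay above the median transcript GC content of the tested genes (49.4%). Hes5 had 62.1% GC, Hes6 61.7%, Dll3 61.0%, Notch3 59.6% and Notch1 57.1%. The others followed with Dll1 at 54.9%, Notch2 at 53.6%, Hey1 at 52.6%, Hes1 at 50.7% and Jag1 at 48.8%. Fold changes are therefore given both as fitted and after a correction of each library for GC content, which was chosen after seeing the data. All cKO embryos lay below all Ctrl embryos in the GC difference given above, so in cKO this trend and the genotype cannot be told apart. The correction can therefore also remove a difference that belongs to the genotype.

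In cKO cortices, most of the 10 listed members were lower than in Ctrl. With edgeR's quasi-likelihood test on the Ctrl and cKO embryos, 7 of the 10 members fell (Notch1, Notch2, Notch3, Dll1, Jag1, Hes1 and Hes5) and 0 rose. Of all 13680 tested genes, 3305 (24.2%) fell and 3285 (24%) rose at the same adjusted p threshold of 0.05. In the same 7 members the highest cKO embryo was below the lowest Ctrl embryo, which held for 28% of all tested genes. The median log2 fold change of the members was -0.77, against 0.01 over all tested genes. All 10 members had a log2 fold change below 0, as did 49.3% of all tested genes. Notch1 and Hes5 also had a log2 fold change under -1, which with the adjusted p was met by 5.94% of all tested genes. In bulk cortex, fewer cells of a type and less RNA per cell cannot be told apart.

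**Figure D2:**
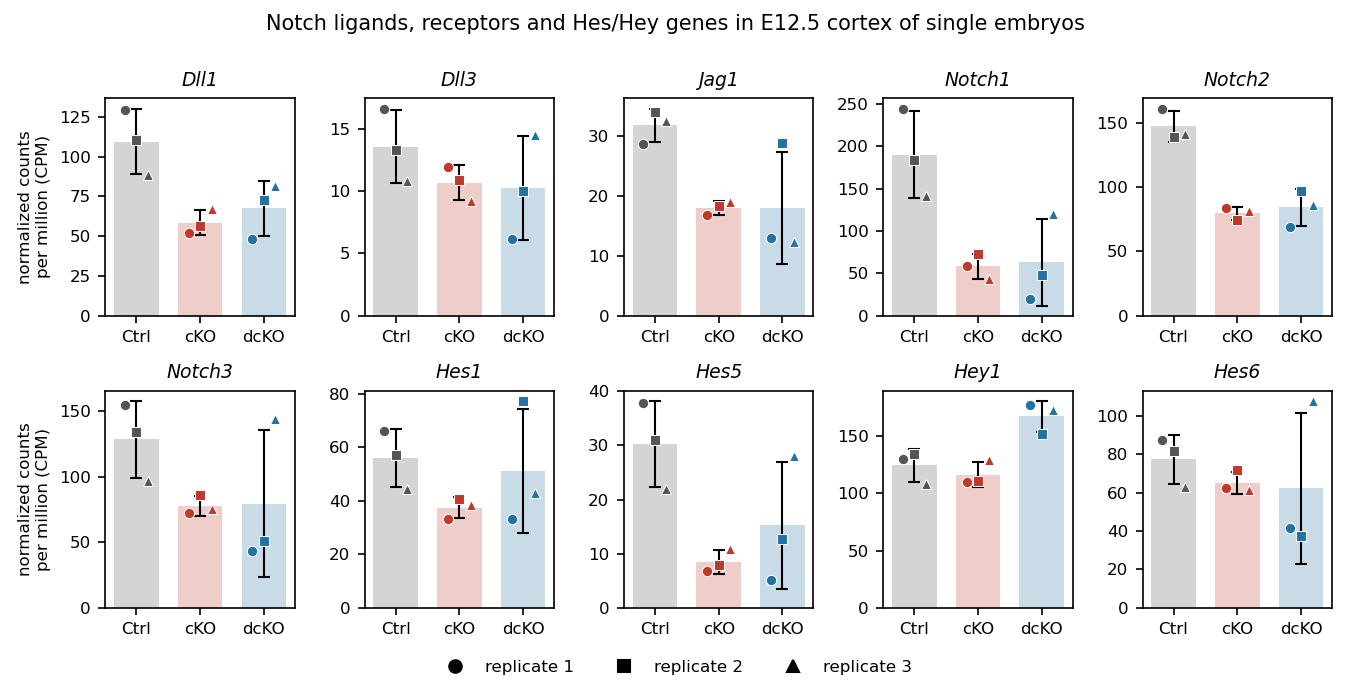
Normalized CPM of the 10 members in each embryo, with bars at the genotype mean, error bars of 1 SD and a marker for each replicate number (3 embryos per genotype). In cKO the points of 7 members all lie under the Ctrl points, and the dcKO points of Notch1 range from 20.0 to 120.4 CPM.

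Among the ligands, Dll1 (ENSMUSG00000014773.14), the Delta ligand that newborn neurons and committed progenitors present to RGCs, was at 129.7, 111 and 88.3 CPM in Ctrl, 52.1, 56.2 and 67.1 CPM in cKO, and 48.3, 73.1 and 81.4 CPM in dcKO. Both mutant genotypes lay below all Ctrl embryos, though the highest dcKO embryo came close to the lowest Ctrl embryo. Dll1 fell in cKO to 53.4% of its Ctrl level (log2 fold change -0.91, SE 0.144, adjusted p = 0.000699). Jag1 (ENSMUSG00000027276.8), a ligand of the Jagged class, was at 28.7, 34.1 and 32.6 CPM in Ctrl, 16.8, 18.3 and 19.0 CPM in cKO, and 12.9, 28.8 and 12.3 CPM in dcKO. The cKO embryos were close together and well under Ctrl, while dcKO replicate 2 was level with the lowest Ctrl embryo. Jag1 fell in cKO (log2 fold change -0.82, SE 0.13, adjusted p = 0.000685). Dll3 (ENSMUSG00000003436.12) encodes a divergent Delta protein that acts inside the cell on its own receptors rather than as an activating ligand. It was at 16.6, 13.3 and 10.8 CPM in Ctrl, 11.9, 10.9 and 9.2 CPM in cKO, and 6.16, 10.04 and 14.5 CPM in dcKO. The genotypes overlapped, with Ctrl replicate 3 below cKO replicates 1 and 2, and Dll3 did not pass the test in cKO (log2 fold change -0.34, SE 0.202, adjusted p = 0.183).

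Among the receptors, Notch1 (ENSMUSG00000026923.16), the main Notch receptor of RGCs, was at 245, 184 and 142 CPM in Ctrl, 59.0, 72.6 and 43.1 CPM in cKO, and 20.0, 48.2 and 120.4 CPM in dcKO. All mutant embryos lay below all Ctrl embryos, and dcKO replicate 3 was nearer to Ctrl than to the other dcKO embryos. Notch1 fell in cKO to 30.6% of its Ctrl level (log2 fold change -1.71, SE 0.214, adjusted p = 0.000198). Notch2 (ENSMUSG00000027878.12), also a receptor of cortical progenitors, was at 161, 139 and 141 CPM in Ctrl, 83.3, 73.9 and 80.95 CPM in cKO, and 69.05, 97.1 and 86.2 CPM in dcKO. It was the receptor with the least spread within genotypes, and no mutant embryo reached the Ctrl range. Notch2 fell in cKO (log2 fold change -0.89, SE 0.0906, adjusted p = 7.22e-05). Notch3 (ENSMUSG00000038146.9), a receptor known best from mural cells of blood vessels and also present in neural progenitors, was at 155, 134 and 97.2 CPM in Ctrl, 72.1, 86.3 and 75.4 CPM in cKO, and 43.4, 51.0 and 144 CPM in dcKO. The cKO embryos were all below Ctrl, whereas dcKO replicates 1 and 2 were below cKO and dcKO replicate 3 was within the Ctrl range. Notch3 fell in cKO (log2 fold change -0.72, SE 0.152, adjusted p = 0.0032).

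Among the Hes and Hey genes, Hes5 (ENSMUSG00000048001.8), a direct target of Notch signaling in RGCs, was at 37.8, 31.0 and 22.0 CPM in Ctrl, 6.75, 7.85 and 10.9 CPM in cKO, and 5.08, 12.6 and 28.1 CPM in dcKO. The cKO embryos were all far under Ctrl, and dcKO replicate 3 lay within the Ctrl range. Hes5 fell in cKO to 28.1% of its Ctrl level (log2 fold change -1.83, SE 0.237, adjusted p = 0.00023). Hes1 (ENSMUSG00000022528.9), the repressor that maintains progenitors together with Hes5, was at 66.3, 57.2 and 44.5 CPM in Ctrl, 33.4, 40.8 and 38.3 CPM in cKO, and 33.2, 77.3 and 42.9 CPM in dcKO. In cKO the gap between the highest mutant and the lowest Ctrl embryo was small, and dcKO replicate 2 was above every Ctrl embryo. Hes1 fell in cKO (log2 fold change -0.58, SE 0.149, adjusted p = 0.00923). Hes6 (ENSMUSG00000067071.9), which encodes a Hes family protein that opposes Hes1 and promotes neuronal differentiation, was at 87.3, 81.8 and 63.1 CPM in Ctrl, 62.2, 71.5 and 61.2 CPM in cKO, and 41.6, 37.4 and 108 CPM in dcKO. Ctrl and cKO overlapped, and the dcKO embryos lay on both sides of Ctrl. Hey1 (ENSMUSG00000040289.9), a target of Notch signaling with a repressor role like that of Hes1, was at 130.3, 134 and 108 CPM in Ctrl, 109.6, 111 and 129 CPM in cKO, and 177, 152 and 173 CPM in dcKO. Ctrl and cKO overlapped, and all dcKO embryos were above both. Neither gene passed the test in cKO, with a log2 fold change of -0.25 (SE 0.127, adjusted p = 0.127) for Hes6 and -0.09 (SE 0.105, adjusted p = 0.486) for Hey1.

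Without Ctrl replicate 3, Hes6 was also called lower in cKO (log2 fold change -0.38, adjusted p = 0.0132), and 8 members were called, against 24% of all tested genes. Hes6 was also called lower with the collection number, described below, as a block (-0.35, 0.0222), with limma voom (-0.31, 0.0414) and with no filter on counts (-0.29, 0.0444). The blocked fit used only the Ctrl and cKO embryos that share a number. These were cKO replicate 2 with Ctrl replicate 1, and cKO replicate 3 with Ctrl replicate 2. It thus left out cKO replicate 1 and also Ctrl replicate 3, so its call of Hes6 is not separate from the omission above. Over the other omissions of a Ctrl or cKO embryo the adjusted p of Hes6 lay between 0.0705 and 0.373. The calls in cKO depended on the estimate of the spread between embryos. In an edgeR model of all 9 embryos, whose spread includes that of dcKO, 0 members and 0 genes (0%) were called lower in cKO, with the smallest member adjusted p at 0.0509 for Notch2. In that model 5 members and 27% of all tested genes had an unadjusted p under 0.05. DESeq2 on all 9 embryos called 4 members lower (Notch1, Notch2, Dll1 and Hes5) and 7.07% of all tested genes, and DESeq2 on the 6 embryos called the same 7 members as edgeR and 25.5% of all tested genes lower. Limma voom, fitted on all 9 embryos with a quality weight for each, called 8 members and 27.3% of all tested genes lower.

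After the GC correction, 6 members were called lower in cKO, against 24.5% of the 13561 genes with a GC value, and 1 was called higher, against 24.4%. Notch1 (log2 fold change -1.29), Notch2 (-0.74), Dll1 (-0.66), Jag1 (-0.90), Hes1 (-0.59) and Hes5 (-0.92) were called lower with and without the correction. The log2 fold change of Notch3 was -0.08 (adjusted p = 0.404) after it. Hes6 changed direction and was called higher (log2 fold change 0.57, SE 0.0938, adjusted p = 0.000538), and Dll3 changed direction without passing the threshold (0.43, adjusted p = 0.0527). The corrected values of the ligand Jag1 and the target Hes1, the least GC-rich members, were close to the uncorrected ones. Those of Hes5, Hes6, Dll3 and Notch3, the most GC-rich, moved the most, and the median over the members went from -0.77 to -0.63.

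**Figure D3:**
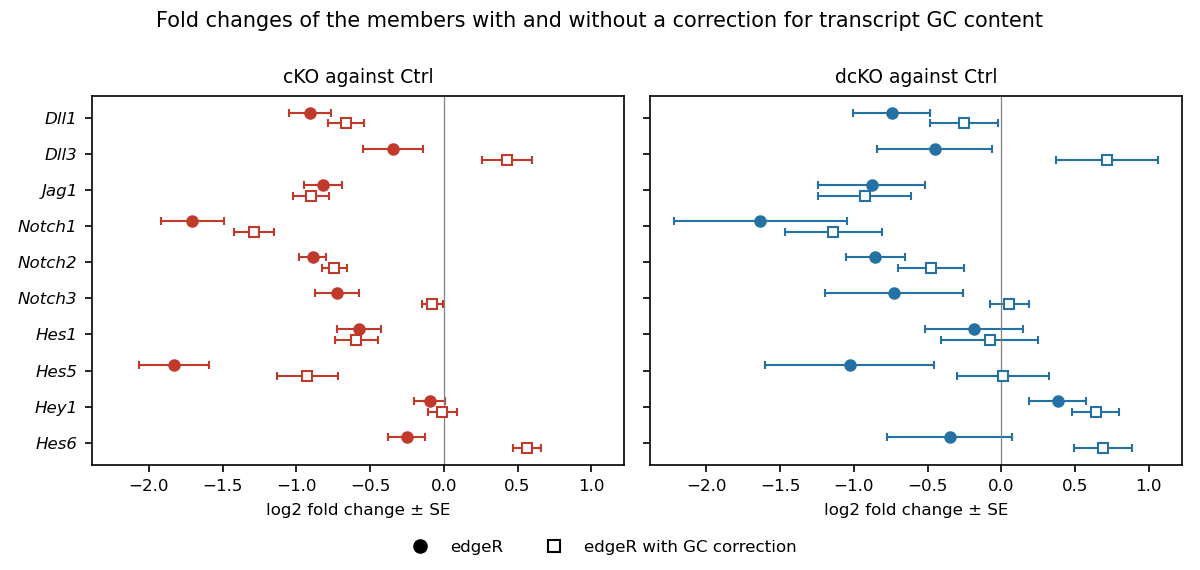
Log2 fold change of each member in cKO (left) and dcKO (right) against Ctrl, fitted with edgeR without (filled circles) and with (open squares) the GC correction; error bars are 1 SE. In cKO, Hes6 moves from -0.25 to 0.57 and Dll3 from -0.34 to 0.43, while Jag1 and Hes1 stay within 0.1 of their uncorrected values.

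The codes of the embryos carry a number, called the collection number here, that some embryos of different genotype share. Its meaning is not stated. The ratios that follow are not corrected for GC content, in which the embryos of each pair differ as given above. In the first such pair, cKO replicate 2 lay below Ctrl replicate 1 for all 10 members and 51.3% of all tested genes, with member log2 ratios of -1.75 for Notch1, -2.27 for Hes5 and -1.21 for Dll1. In the next, cKO replicate 3 lay below Ctrl replicate 2 for all 10 members and 49.7% of all tested genes, with -2.10 for Notch1, -1.51 for Hes5 and -0.72 for Dll1. The smallest differences in these pairs were those of Hey1, at -0.23 and -0.06. In the last pair, dcKO replicate 3 lay below Ctrl replicate 3 for 46.3% of all tested genes and 5 members, Jag1 (-1.40), Notch2 (-0.71), Notch1 (-0.24), Dll1 (-0.12) and Hes1 (-0.05). It lay above it for Hes6 (0.77), Hey1 (0.68), Notch3 (0.57), Dll3 (0.43) and Hes5 (0.35).

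In dcKO cortices, the receptors Notch1 and Notch2 and the ligand Dll1 were below Ctrl in every embryo, Hey1 was above Ctrl in every embryo, and the other members overlapped with Ctrl. Among all tested genes, 11.2% had every dcKO embryo below every Ctrl embryo and 15.6% had every dcKO embryo above. With edgeR's quasi-likelihood test on the Ctrl and dcKO embryos, 0 of the 10 members and 0 of 13680 genes (0%) were called. At an unadjusted p under 0.05 there were 4 members (Notch1, Notch2, Dll1 and Jag1) and 2684 genes (19.6%). The edgeR model of all 9 embryos also called 0 genes. DESeq2 on all 9 embryos called 3 members lower (Notch1, Notch2 and Dll1) and 7.4% of all tested genes, and DESeq2 on the 6 embryos called Notch2 and 2.42% of all tested genes lower. Limma voom with sample quality weights on all 9 embryos called all 10, with Hey1 higher, as 26.5% of all tested genes were, and the other 9 lower, as 26.2% were. Its weights let embryos count unequally and are not reported here, so these calls need not rest on all dcKO embryos alike. Notch3, Dll3, Jag1, Hes1, Hes5 and Hes6 were called by it although their dcKO embryos overlapped with Ctrl. The median log2 fold change of the members was -0.74, against 0.06 over all tested genes, and became -0.03 after the GC correction.

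For the receptors in dcKO, the log2 fold change from Ctrl was -1.63 for Notch1 (SE 0.587, adjusted p = 0.216), -0.85 for Notch2 (SE 0.199, adjusted p = 0.2003) and -0.73 for Notch3 (SE 0.468, adjusted p = 0.399). For the ligands it was -0.74 for Dll1 (SE 0.262, adjusted p = 0.214), -0.88 for Jag1 (SE 0.363, adjusted p = 0.243) and -0.45 for Dll3 (SE 0.389, adjusted p = 0.524). For the Hes and Hey genes it was -1.03 for Hes5 (SE 0.573, adjusted p = 0.343), -0.19 for Hes1 (SE 0.33, adjusted p = 0.767), -0.35 for Hes6 (SE 0.423, adjusted p = 0.654) and 0.38 for Hey1 (SE 0.194, adjusted p = 0.307). The SE was larger than in cKO for each of the 10 members. These comparisons share the Ctrl embryos with those of cKO, and a call in cKO beside none in dcKO does not show that the genotypes differ.

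Without dcKO replicate 3, 6 members were called lower in dcKO, against 21.4% of all tested genes. They were Notch1 (log2 fold change -2.55, adjusted p = 0.00357), Notch3 (-1.51, 0.00326), Hes6 (-1.03, 0.0068), Notch2 (-0.89, 0.00829), Hes5 (-1.84, 0.012) and Dll1 (-0.92, 0.0174). Without dcKO replicate 2, Jag1 was the member called lower (log2 fold change -1.36, adjusted p = 0.0473), against 0.512% of all tested genes. After the GC correction with all embryos, 0 members were called, and the log2 fold changes were -1.14 for Notch1, -0.93 for Jag1, -0.47 for Notch2, -0.25 for Dll1 and -0.08 for Hes1. Those of Notch3 (0.05), Hes5 (0.01), Hes6 (0.69) and Dll3 (0.72) were above 0 after it, as was that of Hey1 (0.64).

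Set directly against cKO, the dcKO embryos had a higher level of Hey1 in every embryo, and the other 9 members overlapped. Among all tested genes, 2.62% had every dcKO embryo above every cKO embryo and 3.63% had every dcKO embryo below. Hey1 had a log2 fold change of 0.52 (SE 0.192, unadjusted p = 0.0249, adjusted p = 1). With edgeR's quasi-likelihood test 0 members and 0 genes (0%) were called between dcKO and cKO. At an unadjusted p under 0.05 there were 1 member, Hey1, and 295 genes (2.16%). No member was called by DESeq2, by limma voom or by the edgeR model of all 9 embryos, which called 2 genes lower. DESeq2 called 17 genes lower and 2 higher on the 6 embryos and 55 lower and 4 higher on all 9, and limma voom called 31 lower and 7 higher. The log2 fold changes of the other members ranged from -0.06 for Hes6 and Dll3 to 0.84 for Hes5 (SE 0.577), and the median over the members was 0.10, against 0.07 over all tested genes. After the GC correction the log2 fold change of Hes5 was 0.90 (SE 0.389, adjusted p = 0.995), and no difference in Hes5 between the mutants was called with or without it. The corrected median over the members was 0.265, against 0.0312 over all genes with a GC value.

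Levels of different genes were compared per kilobase of exon, in CPM per kb, in the Ctrl embryos. Hes6 had the highest level at 42.8 ± 7.0 CPM per kb (SD, n = 3), followed by Hey1 (38.1 ± 4.31), Hes1 (27.5 ± 5.38), Dll1 (26.0 ± 4.91), Hes5 (22.2 ± 5.80), Notch3 (15.9 ± 3.61), Notch2 (13.6 ± 1.11), Notch1 (13.4 ± 3.64), Jag1 (5.46 ± 0.484) and Dll3 (4.77 ± 1.03). The transcription factor genes and Dll1 thus had higher mean levels than the receptors, and Jag1 and Dll3 the lowest. Of the 9 neighboring pairs in this order, 7 overlapped between embryos. Hey1 and Hes1 did not overlap, nor did Notch1 and Jag1. The lowest count of any member in any embryo was 183 reads, for Hes5.

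The genes most like Hes1, Hes5 and Dll1 over the 9 embryos were found by the root mean square (RMS) difference in the log2 ratio to the Ctrl mean, among tested genes outside the lists used here. The cKO embryos entered this choice, so fold changes in cKO near those of the members follow from it. For Dll1 they were Spata2 (RMS 0.119), Tead2 (0.125) and Smo (0.126), with log2 fold changes in cKO of -1.04, -0.86 and -1.05. For Hes1 they were Tent4a (RMS 0.152), BC031181 (0.152) and Gm2423 (0.161), with log2 fold changes in cKO of -0.53, -0.55 and -0.49. Hes5 had no match as close, and its nearest were Gm10180 (RMS 0.276), Ror2 (0.294) and Siva1 (0.3004), with -1.46, -1.81 and -1.43.

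Of 53 other genes of the Notch pathway, from further ligands to proteases and nuclear cofactors, 47 were tested. In cKO 18 of them fell, as 24.2% of all tested genes did, and 6 rose, as 24% did. Their median log2 fold change was -0.26, against 0.01 over all tested genes. Those with the smallest adjusted p among the genes that fell were Spen (log2 fold change -1.22, adjusted p = 6.81e-05), which encodes a corepressor that binds RBPJ, and Mfng (-1.16, 0.000113), a glycosyltransferase that modifies Notch receptors. Pofut1 (-0.57, 0.000631), which adds O-fucose to Notch, Aph1a (-0.59, 0.000635), a subunit of the γ-secretase that cleaves it, and Tle3 (-0.89, 0.000942), a Groucho corepressor of Hes proteins, followed. Among those that rose were Itch (0.59, 0.00034), a ubiquitin ligase that promotes Notch turnover, Snw1 (0.65, 0.000356), a cofactor of the nuclear complex, and Kdm5a (0.60, 0.000616), a demethylase that acts with RBPJ in repression. Aph1b (0.63, 0.000815), an alternative subunit to Aph1a, and Bhlhe40 (0.49, 0.00816), a transcriptional repressor, rose too.

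After the GC correction 13 of the 47 genes were called lower in cKO, against 24.5% of the genes with a GC value, and 8 higher, against 24.4%. Of the 18 that fell without it, 8 were no longer called, while 3 others were called lower and 2 others higher. The median of the 47 moved to -0.12, against 0.01 over all genes with a GC value. The 10 named genes, chosen for the smallest adjusted p, were called in the same direction after it, with log2 fold changes of -0.77 for Spen, -0.65 for Mfng, -0.54 for Pofut1, -0.44 for Aph1a, -0.77 for Tle3, 0.37 for Itch, 0.43 for Snw1, 0.38 for Kdm5a, 0.41 for Aph1b and 0.43 for Bhlhe40. The edgeR model of all 9 embryos called 0 of the 47 in cKO. DESeq2 on all 9 embryos called 6 lower there, against 7.07% of all tested genes, and 2 higher, against 9.6%. In dcKO edgeR called 0 of the 47 against Ctrl. At an unadjusted p under 0.05 there were 9, against 19.6% of all tested genes, and the median log2 fold change was -0.24, against 0.06. DESeq2 on all 9 embryos called 6 lower there, against 7.4%, and 4 higher, against 10.3%. Against cKO, edgeR and DESeq2 on all 9 embryos called 0 of the 47 in dcKO, with 2 at an unadjusted p under 0.05, against 2.16% of all tested genes. DESeq2 called 0.402% of all tested genes lower in this comparison and 0.0292% higher. Dlk2, Tle2, Hes2, Hes3, Hes7 and Nrarp were too low to test, and Hes3 had no read in any embryo.

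Nrarp, which encodes a feedback inhibitor of Notch signaling and was singled out here after its values were seen, was at 10.97, 3.62 and 0.757 CPM in Ctrl, 0.073, 0.298 and 0.339 CPM in cKO, and 0.0555, 0.255 and 1.95 CPM in dcKO. The Ctrl embryos differed widely among themselves, and Ctrl replicate 3 lay below dcKO replicate 3.

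Of 7 proneural genes, which Hes and Hey proteins repress and which drive neuronal differentiation, 6 were tested and edgeR called 0 in cKO, with 3 at an unadjusted p under 0.05, against 54.9% of all tested genes. Neurog2, the most abundant, was at 188, 152 and 131 CPM in Ctrl, 144, 115 and 116.4 CPM in cKO, and 143, 262 and 151 CPM in dcKO. Its level in dcKO replicate 2 was above all other embryos, and Ctrl and cKO overlapped. The log2 fold changes in cKO were -0.33 for Neurog2, -0.34 for Neurog1, -0.53 for Neurod1, -0.36 for Insm1 and 0.81 for Neurod4, with adjusted p-values between 0.056 and 0.192. DESeq2 on all 9 embryos called 0 proneural genes in cKO, where it called 7.07% of all tested genes lower and 9.6% higher. The edgeR model of all 9 also called 0, with 0 genes lower and 2 higher among all tested genes. After the GC correction 1 of the 6, Neurod1, was called lower in cKO (log2 fold change -0.75, adjusted p = 0.0128), against 24.5% of the genes with a GC value, and the median of the 6 genes moved from -0.33 to 0.07. In dcKO edgeR called 0 of the 6 against Ctrl, with Neurod4 at a log2 fold change of 1.45 (unadjusted p = 0.0126, adjusted p = 0.2003). DESeq2 on all 9 embryos called Neurod4 higher there, as it did 10.3% of all tested genes. Against cKO, edgeR and DESeq2 on all 9 embryos called 0 of the 6 in dcKO, with 0 at an unadjusted p under 0.05, against 2.16% of all tested genes. Of all tested genes, edgeR called 0% in this comparison, and DESeq2 called 0.402% lower and 0.0292% higher. Atoh1 was too low to test.

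Markers of the cell types that carry Notch signaling were measured in the same libraries. The 11 radial glia markers summed to 4829, 4408 and 4134 CPM in Ctrl, 4103, 4304 and 3886 CPM in cKO, and 4134, 5208 and 4359 CPM in dcKO, with Vim the most abundant. In cKO, where 24.2% of all tested genes fell and 24% rose, 4 of the 11 fell (Nes, Emx2, Lhx2 and Sox9) and 2 rose, Prom1 and Vim (log2 fold change of Vim 0.45, adjusted p = 0.00837). Vim made up 36.6% of the summed level, and the other 10 genes, summed after this was seen, came to 3333, 3076 and 2975 CPM in Ctrl, 2335, 2274 and 2227 CPM in cKO, and 2455, 3953 and 2340 CPM in dcKO. Ctrl and cKO overlapped in the sum with Vim and did not overlap without it. The 6 intermediate progenitor markers summed to 536, 513 and 477 CPM in Ctrl, 485, 451 and 416 CPM in cKO, and 356, 667 and 406 CPM in dcKO, with Eomes the most abundant, and 3 of the 6 fell in cKO (Btg2, Gadd45g and Nhlh1). Without Eomes they came to 368, 355 and 329 CPM in Ctrl, 289, 285 and 268 CPM in cKO, and 243, 422 and 257 CPM in dcKO, so that here too Ctrl and cKO overlapped in the whole sum only. The 10 neuron markers summed to 2183, 1925 and 1660 CPM in Ctrl, 1609, 1711 and 1228 CPM in cKO, and 1062, 2111 and 1636 CPM in dcKO, with Tubb3 the most abundant, and in cKO 4 of the 10 fell (Tubb3, Dcx, Elavl3 and Bcl11b) and 1 rose (Neurod6), beside the same shares of all tested genes. Ctrl and cKO overlapped in the neuron sum with and without Tubb3. Marker genes named for their calls were chosen after their values were seen. The part of these cell types in the members' values was not tested.

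Markers of cells outside the Emx1 lineage were measured as well, and their calls in cKO stand beside the 24.2% of all tested genes that fell there and the 24% that rose. The 8 endothelium markers, with Kdr the most abundant, summed to 243, 303 and 321 CPM in Ctrl, 322, 312 and 225 CPM in cKO, and 152, 162 and 162 CPM in dcKO. The 6 mural cell markers, with Pdgfrb the most abundant, summed to 82.6, 95.8 and 88.9 CPM in Ctrl, 90.9, 96.3 and 65.0 CPM in cKO, and 42.4, 49.1 and 67.6 CPM in dcKO. In cKO edgeR called 0 of both lists, with 0 at an unadjusted p under 0.05, against 54.9% of all tested genes. All dcKO sums of both lists lay below all Ctrl sums. The 6 meningeal fibroblast markers, with Col3a1 the most abundant, summed to 789, 858 and 779.9 CPM in Ctrl, 499, 694 and 452 CPM in cKO, and 324, 343 and 518 CPM in dcKO, and 3 fell in cKO (Col1a1, Col1a2 and Col3a1). The other genes of the list, Dcn (log2 fold change 0.001), Lum (0.19) and Foxc1 (0.32), did not fall in cKO and overlapped with Ctrl there. All mutant sums of this list, to which the collagens contribute, lay below all Ctrl sums. The 6 markers of microglia and macrophages, of which Aif1 and Ptprc were too low to test and Csf1r was the most abundant, summed to 29.6, 38.6 and 32.9 CPM in Ctrl, 54.4, 71.3 and 35.3 CPM in cKO, and 22.0, 12.3 and 28.2 CPM in dcKO, and 1 rose in cKO (Fcer1g). Ctrl and cKO overlapped in this sum, and without Csf1r they did not (15.5, 20.3 and 19.0 CPM in Ctrl, 29.3, 42.4 and 21.5 CPM in cKO). The 8 red cell markers, with Hbb-y the most abundant, summed to 8183, 9696 and 6730 CPM in Ctrl, 12740, 8358 and 11450 CPM in cKO, and 6027, 4398 and 5432 CPM in dcKO, and 4 rose in cKO (among them Hbb-y, Hbb-bh1 and Alas2). Notch ligands and receptors are also made by vascular cells, and the part of these cells in the members' values was not tested.

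Regional markers were used to see which part of the telencephalon the tissue held. The 8 genes of the subpallium and interneurons were all too low to test, and summed to 0.489, 0.397 and 0.216 CPM in Ctrl, 0.219, 0.0744 and 0.452 CPM in cKO, and 0, 8.43 and 0.331 CPM in dcKO. Dlx2 was the most abundant of them in Ctrl, and the sum in dcKO replicate 2 stood above all other embryos. The 7 markers of cortical hem and choroid plexus, with Wnt8b the most abundant, summed to 79.1, 102.5 and 72.3 CPM in Ctrl, 96.6, 219.7 and 297 CPM in cKO, and 290.3, 124 and 141 CPM in dcKO. Of the 4 tested, 3 rose in cKO (Wnt2b, Lmx1a and Rspo1), against 24% of all tested genes, and the sums in cKO replicates 2 and 3 and in all dcKO embryos were above those of every Ctrl embryo. Without Wnt8b the sums of all mutant embryos were above those of every Ctrl embryo. Wnt3a, Ttr and Otx2 were not tested since they did not exceed 10 reads in every embryo. Ttr, a choroid plexus marker singled out with Otx2 after their values were seen, was at 0 CPM in all Ctrl embryos, 5.91, 10.9 and 32.8 CPM in cKO, and 56.9, 3.42 and 6.17 CPM in dcKO. Otx2 was at 1.10, 0.843 and 0.0361 CPM in Ctrl, with 2.23 CPM in the lowest cKO embryo and 1.57 CPM in the lowest dcKO embryo. Every mutant embryo lay above every Ctrl embryo for both. The part of the dissected region in the members' values was not tested.

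After the GC correction, 24.5% of the genes with a GC value were called lower in cKO and 24.4% higher. Among marker lists the calls were 6 lower and 1 higher of 11 radial glia markers, 3 lower and 1 higher of 6 intermediate progenitor markers, and 6 lower of 10 neuron markers. They were 2 lower and 1 higher of 6 for meningeal fibroblasts, 3 higher of 4 for microglia and macrophages, 4 higher of 8 for red cells and 4 higher of 4 for cortical hem, with 0 of 8 for endothelium and 0 of 6 for mural cells. Of the genes called without the correction, Vim, Nhlh1, Neurod6 and Col1a2 were not called after it. In dcKO edgeR called 0 genes of any marker list against Ctrl. At an unadjusted p under 0.05, met by 19.6% of all tested genes, there were 5 of 8 endothelium, 4 of 8 red cell, 3 of 6 meningeal fibroblast, 2 of 6 mural cell, 2 of 11 radial glia, 2 of 6 intermediate progenitor, 2 of 4 cortical hem, 1 of 10 neuron and 0 of 4 microglia and macrophage markers. DESeq2 on all 9 embryos called 5 endothelium, 3 red cell, 3 meningeal fibroblast, 2 mural cell, 2 intermediate progenitor and 1 neuron markers lower in dcKO, against 7.4% of all tested genes, and 2 cortical hem and 1 radial glia markers higher, against 10.3%. Between dcKO and cKO edgeR called 0 marker genes. At an unadjusted p under 0.05, met by 2.16% of all tested genes, there were 6 of 8 red cell, 5 of 8 endothelium, 3 of 4 microglia and macrophage, 2 of 6 mural cell and 3 of 11 radial glia markers, and 0 of the other lists. In this comparison DESeq2 on all 9 embryos called 2 red cell, 1 endothelium and 1 mural cell markers lower in dcKO than in cKO, against 0.402% of all tested genes, and 0 markers higher, against 0.0292%. The edgeR model of all 9 embryos called 0 marker genes in any comparison.

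Promoter sequences, taken from RefSeq on GRCm38.p6, were searched over the 250 bases before the start of each gene, on both strands. Of the 10 members, 8 had a promoter entry, with 10 promoters in all since Dll1 and Hes6 had 2 each; Hes1 and Hey1 were not analysed here. The motif GTGGGAA, bound by RBPJ, was found in 1 of the 10 member promoters, that of Hes5, and in 5.42% of all 32851 promoters. Its shorter form TGGGAA, which each GTGGGAA contains, was found in the same member promoter and in 21.6% of all promoters. Hes5 held 2 matches of GTGGGAA, which began 226 and 83 bases before the start, and 53 of all promoters (0.161%) held 2 or more. The motif CACNAG, the N-box bound by Hes proteins, was found in 4 of the member promoters (Hes6, Notch1, Notch2 and Notch3) and in 36.7% of all promoters. The promoters of Hes5 and Notch1, as the members with the lowest share of their Ctrl level in cKO, are shown. That of Hes5 lies on the plus strand at chr4:154960673-154960922, with the GTGGGAA matches of either strand in capitals, and that of Notch1 on the minus strand at chr2:26503823-26504072, with the CACNAG match in capitals. A match describes the letters in this window and not a bound site.
Hes5: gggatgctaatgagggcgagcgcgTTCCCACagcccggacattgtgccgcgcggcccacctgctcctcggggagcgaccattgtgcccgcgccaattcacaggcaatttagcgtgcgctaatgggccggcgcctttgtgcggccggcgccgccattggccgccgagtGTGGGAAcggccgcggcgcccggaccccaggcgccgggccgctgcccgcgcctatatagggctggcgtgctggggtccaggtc
Notch1: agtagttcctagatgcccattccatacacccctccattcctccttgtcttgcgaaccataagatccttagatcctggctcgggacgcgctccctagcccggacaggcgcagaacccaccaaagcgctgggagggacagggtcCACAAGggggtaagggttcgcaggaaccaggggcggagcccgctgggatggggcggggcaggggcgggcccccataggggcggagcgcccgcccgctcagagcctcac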

How the data were processed

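Cortical RNA of 9 single E12.5 embryos (3 Ctrl, 3 cKO, 3 dcKO) had been made into TruSeq stranded mRNA libraries and sequenced as NovaSeq paired-end reads. Reads were checked with FastQC, trimmed with Cutadapt, aligned to mm39 with STAR and assigned to genes with featureCounts by the authors, who deposited raw counts for 57010 genes, with no normalization. Total counts ranged from 21193798 to 45073349 per embryo. No other value column was used.

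Counts were tested in R 4.3.3 with edgeR 4.0.16 (TMM factors, glmQLFit and glmQLFTest, no covariates) on 13680 genes, those above 10 reads in each of the 9 embryos. Each comparison was fitted on its own 6 embryos. This was chosen knowing that dcKO embryos vary more than the others and that it calls more genes in cKO. Calls were made at an adjusted p under 0.05, with the Benjamini-Hochberg adjustment over all tested genes. Embryos of a genotype are different animals. An exact permutation test of 3 embryos against 3 cannot go below 0.1 and was not used. Alternatives were an edgeR model of all 9 embryos, RLE factors, DESeq2 1.42.0 on 6 or 9 embryos, limma 3.58.1 voom with sample quality weights, filterByExpr, no filter, a log2 fold change beyond 1, the replicate number or the collection number as a block, each embryo left out, and the longest transcript as gene length. A correction for GC content (loess of log2 CPM, span 0.3, entered as offsets, 13561 genes) was chosen after seeing the data. Procedures were tested on simulated data.

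CPM used the TMM factors. Symbols matched 52029 genes. Exon lengths and GC content came from GENCODE M21 on GRCm38. Tables and plots used Python 3.11.15, pandas 2.3.3, NumPy 2.4.6 and matplotlib 3.10.9. The members and the gene and marker lists were chosen with earlier results of these data known. Named were all members, both deleted genes, tested proneural genes, the 5 other Notch genes with the smallest adjusted p in each direction in cKO, the most abundant gene of each marker list and genes without reads, and the 3 genes most like Hes1, Hes5 and Dll1. Values of some listed genes are not reported here.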

Additional observations from a re-analysis of the deposited data

How the results depend on the processing

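Over 17 alternatives, the members' log2 fold changes in cKO kept their direction and their side of the threshold in 148 of 170 cases, lost the call in 16 and gained it in 4. They reversed in 2, both under the GC correction (Dll3 0.43, Hes6 0.57). The number of members called lower in cKO was 7, and it was 0 in the edgeR model of all 9 embryos, 4 with DESeq2 on all 9 embryos and 2 with a log2 fold change beyond 1. Genes called lower and higher numbered 0 and 2 in the edgeR model of all 9, 967 and 1313 with DESeq2 on all 9, and 813 and 945 with the fold change rule. With the GC correction 1 member was called higher.

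In dcKO against Ctrl, where edgeR called 0 members and 0 genes, DESeq2 on 6 embryos called 1 member, with 331 genes lower and 466 higher. DESeq2 on all 9 embryos called 3 members, with 1012 genes lower and 1414 higher. Limma voom called 9 members lower and 1 higher, with 3582 genes lower and 3628 higher. With each embryo left out in turn, members called lower numbered 0 to 6, genes lower 0 to 2924 and genes higher 0 to 2249. The highest of these came without dcKO replicate 3, and without dcKO replicate 2 there were 1 member, 70 genes lower and 215 higher. The GC correction reversed Dll3 (0.72), Hes5 (0.012), Hes6 (0.69) and Notch3 (0.054). The log2 fold change of Hes1 ranged from -0.58 to 0.041 with an embryo left out. The other members kept their direction in these fits. Their ranges were -2.55 to -1.21 for Notch1, -0.94 to -0.74 for Notch2 and -1.51 to -0.44 for Notch3. For the ligands they were -0.92 to -0.55 for Dll1, -0.81 to -0.19 for Dll3 and -1.36 to -0.68 for Jag1. Hes5 ranged from -1.84 to -0.61, Hes6 from -1.03 to -0.073 and Hey1 from 0.29 to 0.47.

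In dcKO against cKO, genes called lower and higher numbered 2 and 0 in the edgeR model of all 9 embryos, 17 and 2 with DESeq2 on 6, 55 and 4 with DESeq2 on all 9, 31 and 7 with limma voom, 5 and 2 without a filter, 2 and 1 with the GC correction, and 0 to 6 and 0 to 1 with an embryo left out. None of these called a member. Limma voom reversed Dll1 (-0.13), Hes5 (-0.37), Notch1 (-1.22), Notch2 (-0.16) and Notch3 (-0.67), and the GC correction reversed Dll3 (0.26) and Hes6 (0.10). Jag1, at -2e-04, became 2e-04 in the edgeR model of all 9 embryos, 0.012 with RLE factors and 0.013 with DESeq2 on 6. With an embryo left out, log2 fold changes ranged from -0.40 to 0.20 for Dll3, -0.72 to 0.19 for Hes6, -0.53 to 0.21 for Jag1, -0.77 to 0.53 for Notch1, -0.047 to 0.21 for Notch2 and -0.72 to 0.32 for Notch3. Those of Hes5 (0.059 to 1.26), Hes1 (0.0059 to 0.68), Dll1 (0.054 to 0.40) and Hey1 (0.48 to 0.61) stayed above 0. The cause of these changes was not tested.

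The labels number the embryos of each genotype 1 to 3. Deviations from the genotype mean correlated across genes with a mean r of -0.171 between embryos of the same number (9 pairs) and 0.0844 between others (18 pairs). The 3 pairs that share a collection number had an r of 0.196, -0.0136 and -0.543, and the last of these, Ctrl and dcKO replicates 3, also share the replicate number. Neither number is stated to mark a pairing. With the replicate number as a block, no member's call changed in any comparison. Between dcKO and cKO the block gave 2 genes lower and 1 higher, and reversed Notch1 (-0.25) and Notch3 (-0.20). With the collection number as a block, in a fit that left out Ctrl replicate 3 and cKO replicate 1, 8 members were called lower in cKO. Among them was Hes6 (-0.35, edgeR adjusted p = 0.0222). Of all 13680 tested genes, that block called 3242 lower and 2907 higher.

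With the longest transcript as length, the Ctrl levels of Notch1 (20.1 CPM per kb), Hes1 (38.1) and Hey1 (51.3) moved by more than 1 SD, and Hey1 came above Hes6. Notch1 also came above Notch3 (16.1) and Notch2 (14.0), so that the order of the receptors changed. Each member had at least 183 reads in every embryo, and with 3 embryos per genotype the chi-square per gene within genotypes, 15.6 or more, exceeded the sampling of reads.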
